A study of Mus musculus with 6 samples.

Results

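Mitochondrial ribosomal proteins were read in a count table of mouse CD8 T cells as all protein-coding genes whose symbol is Mrpl or Mrps followed by a digit. The table held 78 such genes among 57010 gene identifiers, of which 49 carry the large subunit symbol Mrpl and 29 the small subunit symbol Mrps. After the filter on low counts 77 of the 78 were among the 16439 genes tested, the exception being Mrpl53.

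The study compared CD8 T cells with and without MondoA, a glucose-sensing transcription factor encoded by the gene Mlxip. The samples were naive CD8 T cells of C57BL/6 mice at 8 weeks of age, isolated by sorting from spleen plus lymph nodes, stimulated with anti-CD3/CD28 for 24 hours and sequenced as mRNA libraries. The 3 WT libraries are from MondoAfl/fl mice, in which both copies are floxed but Cre is lacking, and the 3 KO libraries are from MondoAfl/flCD4cre mice, in which Cre is driven from the CD4 promoter and so acts in developing T cells. Cre was present in the KO group alone, so an effect of Cre and of MondoA loss cannot be told apart, and no label ties a library to a mouse of its own, so the p-values reflect how much these 6 libraries varied, which can include technical variation.

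Mitochondria translate the few proteins encoded by their own genome on a dedicated ribosome, the mitoribosome. Its RNAs come from mitochondrial DNA, whereas its proteins are encoded in the nucleus, made in the cytosol and imported. The small subunit decodes the mRNA and the large subunit joins the amino acids, and the products are core subunits of the respiratory chain and ATP synthase. T cells enlarge their mitochondrial network after activation, and mitochondrial translation is known to be needed for several functions of activated T cells.

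The members lie on 17 chromosomes, with 11 on chromosome 11 and 8 on chromosome 17, so the group is not a single gene cluster. The RefSeq table of mouse promoters (GRCm38.p6, 250 bases before and 50 from each start site) held 75 promoters of 69 members, and 9 members had no entry. The motifs searched on both strands were CACGTG, the E-box core bound by MYC and by MondoA with its partner MLX, GCGCATGC for NRF1, CCGGAAG for ETS factors such as GABPA, and ATGGCGGC for YY1. NRF1, GABPA and YY1 are known regulators of nuclear genes for mitochondrial proteins. None of these 4 strings contains another. The promoters of 4 genes are printed to show each motif in a member, as the 100 bases before and the 30 bases from the start site on the gene's own strand, with motif letters in capitals. Mrpl22, which encodes a protein at the exit tunnel, is at chr11:58171564-58171693 (+) and holds the ETS, NRF1 and YY1 strings in that order. Mrps22, a protein found in mitochondrial but not bacterial ribosomes, is at chr9:98601650-98601779 (-) and holds the ETS string. Mrps5, a protein near the decoding site, is at chr2:127587326-127587455 (+) and holds the YY1 string just after the start site. Mrpl20, a protein of the large subunit core, is at chr4:155802778-155802907 (+) and holds the E-box core.
Mrpl22: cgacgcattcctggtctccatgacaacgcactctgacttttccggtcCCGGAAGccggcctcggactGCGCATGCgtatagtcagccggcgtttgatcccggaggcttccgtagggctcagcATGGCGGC
Mrps22: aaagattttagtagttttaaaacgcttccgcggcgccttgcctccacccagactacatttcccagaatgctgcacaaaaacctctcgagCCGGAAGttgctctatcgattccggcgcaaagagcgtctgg
Mrps5: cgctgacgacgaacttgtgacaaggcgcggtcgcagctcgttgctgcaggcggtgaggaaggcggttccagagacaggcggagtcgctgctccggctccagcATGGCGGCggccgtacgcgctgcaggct
Mrpl20: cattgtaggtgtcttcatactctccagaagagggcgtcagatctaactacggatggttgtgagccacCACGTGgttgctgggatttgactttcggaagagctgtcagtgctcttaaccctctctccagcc

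The ETS string stood in 34.7% of the 75 member promoters, against 17% of the 13403 promoters of tested genes and 8.86% of all 32851 promoters. The YY1 string stood in 16% of member promoters, against 4.51% of those of tested genes and 2.24% of all. The printed YY1 matches, in Mrpl22 and Mrps5, lie after the start site, in transcribed bases. Where the string lies in the other promoters was not counted, and whether it is part of a coding sequence was not examined. The NRF1 string stood in 10.7%, against 5.06% and 2.71%. The E-box core was found in 9.33% of member promoters, 9.64% of those of tested genes and 7.15% of all. Member promoters thus held the ETS and YY1 strings in a higher share than the promoters of tested genes, and the E-box core in a similar share. The NRF1 string differed by subunit, with 7 of 48 large subunit promoters (14.6%) and 1 of 27 small subunit promoters (3.7%), the latter below the share of tested genes. The E-box core was in 7 promoters of 5 genes, Mrpl2, Mrpl20, Mrpl36, Mrpl37 and Mrps18c, since 3 of these promoters are overlapping windows of Mrpl2. A pair of E-box cores with 5 bases between them, the perfect form of the carbohydrate response element that MondoA is known to bind, was in none of the 32851 windows, so its absence from member promoters carries no information. These matches describe letters in a window, and whether any factor binds them was not tested.

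Total counts were between 26150420 and 34447230 per library. Mlxip was lower in every KO library but not below the adjusted threshold (log2 fold change -0.58, edgeR's quasi-likelihood test, Benjamini-Hochberg adjusted p = 0.125). It passed that threshold with DESeq2 (-0.57, adjusted p = 8.60e-05) and with edgeR without the filter on low counts (-0.58, adjusted p = 6.56e-06). In the main edgeR fit the genes called over the whole table were Txnip (-1.53, adjusted p = 3.85e-05) and Arrdc4 (-3.10, adjusted p = 4.07e-05), both known MondoA targets and both lower in KO. The summed level of 5 CD8 T cell markers was 1338 to 1633 CPM in WT and 1553 to 1841 CPM in KO. Summed B cell markers (3 genes) were 32.7 to 57.1 CPM in WT and 16.9 to 43.2 CPM in KO, summed CD4 T cell markers (2 genes) 9.38 to 20.0 and 6.64 to 11.6, and summed myeloid markers (4 genes) 2.76 to 12.1 and 1.93 to 4.39. Summed NK cell markers (2 genes) were 5.05 to 6.68 CPM in WT and 2.19 to 4.42 in KO, summed erythroid markers (2 genes) 0.994 to 4.46 and 1.404 to 3.51, and no marker was at 0 in all libraries. Their part in the differences described here was not tested.

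The mitochondrial ribosomal protein genes were expressed at moderate levels in every library. Levels are given as CPM, counts scaled to a common library size that edgeR's TMM method corrects for differences in composition. The members made up 0.177% to 0.208% of each library's counts. Their summed level was 1827 ± 123 CPM (SD, n = 3) in the WT libraries and 1940 ± 182 CPM (SD, n = 3) in the KO libraries, a ratio of 1.06. Large subunit genes summed to 1251 ± 83.8 CPM in WT and 1328 ± 138 CPM in KO, and small subunit genes to 575 ± 40.8 CPM in WT and 611 ± 43.6 CPM in KO. Both subunits thus differed between genotypes by the same ratio, and by less than the SD of either group. The ratio of summed large to summed small subunit counts was 2.12, 2.19 and 2.21 in the WT libraries and 2.25, 2.15 and 2.11 in the KO libraries, each in replicate order, so the groups overlapped. In bulk RNA, fewer cells of a type and less RNA per cell cannot be told apart.

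Single members ranged from a mean of 4.99 CPM for Mrpl43 to 92.0 CPM for Mrpl24, with a median of 22.0 CPM over the 77 tested. Counts of a member in a library were between 131 and 3249. For a member, the highest of the 6 libraries was 1.11 to 1.87 times the lowest, with a median of 1.36, and it was at least 2 times the lowest for 0 members.

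Levels were compared between genes only after division by the length of the gene's median protein-coding transcript. On that scale of CPM per kilobase the median level was 20.6 over all 49 large subunit genes and 15.9 over all 29 small subunit genes. In the large subunit Mrpl30 was highest, at 83.8 ± 8.92 CPM per kilobase in WT and 96.1 ± 13.3 in KO (SD, n = 3 each). Mrpl24 followed with 73.7 ± 4.04 in WT and 76.4 ± 2.11 in KO. Its protein sits at the rim of the exit tunnel, as does that of Mrpl23. The next were Mrpl20, at 57.3 ± 6.20 and 65.9 ± 12.6, Mrpl23, at 48.0 ± 5.83 and 49.99 ± 8.85, and Mrpl41, at 41.7 ± 3.29 and 48.6 ± 5.40. The mean ± SD of neighbours in this order overlapped in at least 1 genotype for each pair.

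In the small subunit Mrps23 was highest, at 75.6 ± 9.76 CPM per kilobase in WT and 81.6 ± 10.7 in KO, and was followed by Mrps21, a platform protein, at 50.3 ± 7.16 and 50.02 ± 1.66. Mrps17, a protein of the body, stood at 43.5 ± 2.45 in WT and 36.7 ± 0.796 in KO, Mrps18a at 27.1 ± 1.43 and 27.6 ± 1.04, and Mrps15 at 25.5 ± 3.75 and 25.97 ± 2.73. Mrps23 stood above Mrps21, and Mrps17 above Mrps18a, beyond their SDs in both genotypes. Mrps21 and Mrps17 overlapped in WT, and Mrps18a and Mrps15 in both genotypes. The lowest detected members on this scale were Mrps25, at a mean of 1.41 CPM per kilobase over all libraries, and Mrpl35, at 3.36. The choice of transcript matters to these ranks: with the longest transcript of each gene, 3 of the 5 highest large and 3 of the 5 highest small subunit genes were among the 5 highest again, and Mrps17 was at 6.74 CPM per kilobase.

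**Figure D1:**
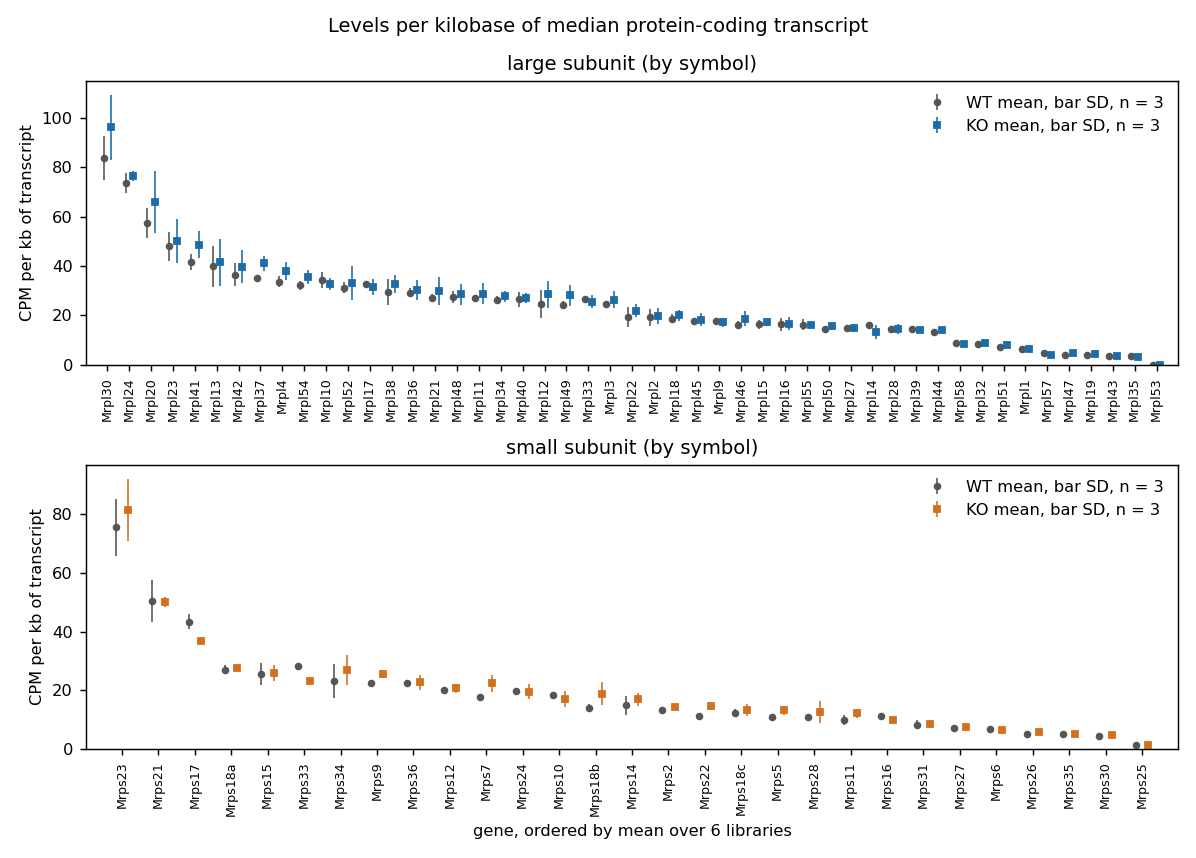
Level of each mitochondrial ribosomal protein gene in CPM per kilobase of median protein-coding transcript (vertical axis), ordered by the mean over 6 libraries, with large subunit genes above and small subunit genes below; circles are WT means, squares KO means and bars the SD (n = 3 each). Mrpl30 at 89.9 and Mrps23 at 78.6 on average lead the 2 subunits, Mrpl53 is listed at 0, and the WT and KO points of most genes lie within each other's bars.

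Mrpl53, which encodes a large subunit protein, was listed at 0 counts in all 6 libraries and was the only member outside the test. A count of 0 allows 3 counts, or up to 0.115 CPM in the shallowest library, and that limit covers counting error only and holds only if reads of the gene could be assigned to it. In the GENCODE M21 annotation 88.0% of the exonic bases of Mrpl53 are also exonic in Ccdc142os or Gm42688 on the same strand. Ccdc142os had 4 to 18 counts and Gm42688 19 to 30 counts per library. How reads of overlapping genes were counted is not given in the sources used here, so the part of the overlap in this 0 was not tested. The overlap passed 50% of exonic bases for only 2 other members, Mrps34 (77.8%) and Mrps25 (69.8%).

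The comparison of KO with WT asks whether loss of MondoA goes with other levels of these genes. No member passed the adjusted threshold of 0.05: edgeR's quasi-likelihood test called 0 of 77 and DESeq2 called 0 of 77, where edgeR called 0.0122% of all tested genes and DESeq2 0.931%. At an unadjusted p under 0.05 edgeR gave 5 members higher in KO, 6.49% of those tested beside 5.05% of all genes, and 2 lower, 2.60% beside 5.77%. DESeq2 also gave 5 higher and 2 lower at that level, beside 5.61% and 5.21% of all genes. These counts moved with the setting, as did those over all genes. Scaled by library size alone, edgeR gave 2 higher and 3 lower, beside 395 and 1515 of all 16439 genes. With a replicate block it gave 2 and 0, beside 660 and 766 of 16439. Without KO 1 it gave 1 and 3, beside 686 and 711 of 17138. Without WT 2 it gave 9 and 0, beside 1095 and 1231 of 17079. The log2 fold change of KO against WT was above 0 for 57 of the 77 members (74%) and for 47.2% of all genes tested. The median was 0.069 over members and -0.016 over all genes.

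Large subunit genes had a positive log2 fold change in 36 of 48 cases with a median of 0.071, and small subunit genes in 21 of 29 cases with a median of 0.069. The range was -0.27 (Mrpl14) to 0.23 (Mrpl37) in the large subunit and -0.27 (Mrps33) to 0.42 (Mrps18b) in the small subunit. Differences were small: 61 members (79.2%) lay within 0.2 of 0 on the log2 scale, against 57.3% of all genes tested. The median SE was 0.129 over members, at a median of 22.0 CPM, and 0.167 over all genes, at a median of 10.9 CPM. The 95% interval of the log2 fold change lay within 1.5-fold in either direction for 69 of 77 members. The exceptions were Mrpl12, Mrpl14, Mrpl43, Mrps11, Mrps18b, Mrps22, Mrps28 and Mrps34. For those 69 a difference between genotypes of over 1.5-fold lay outside the interval.

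**Figure D2:**
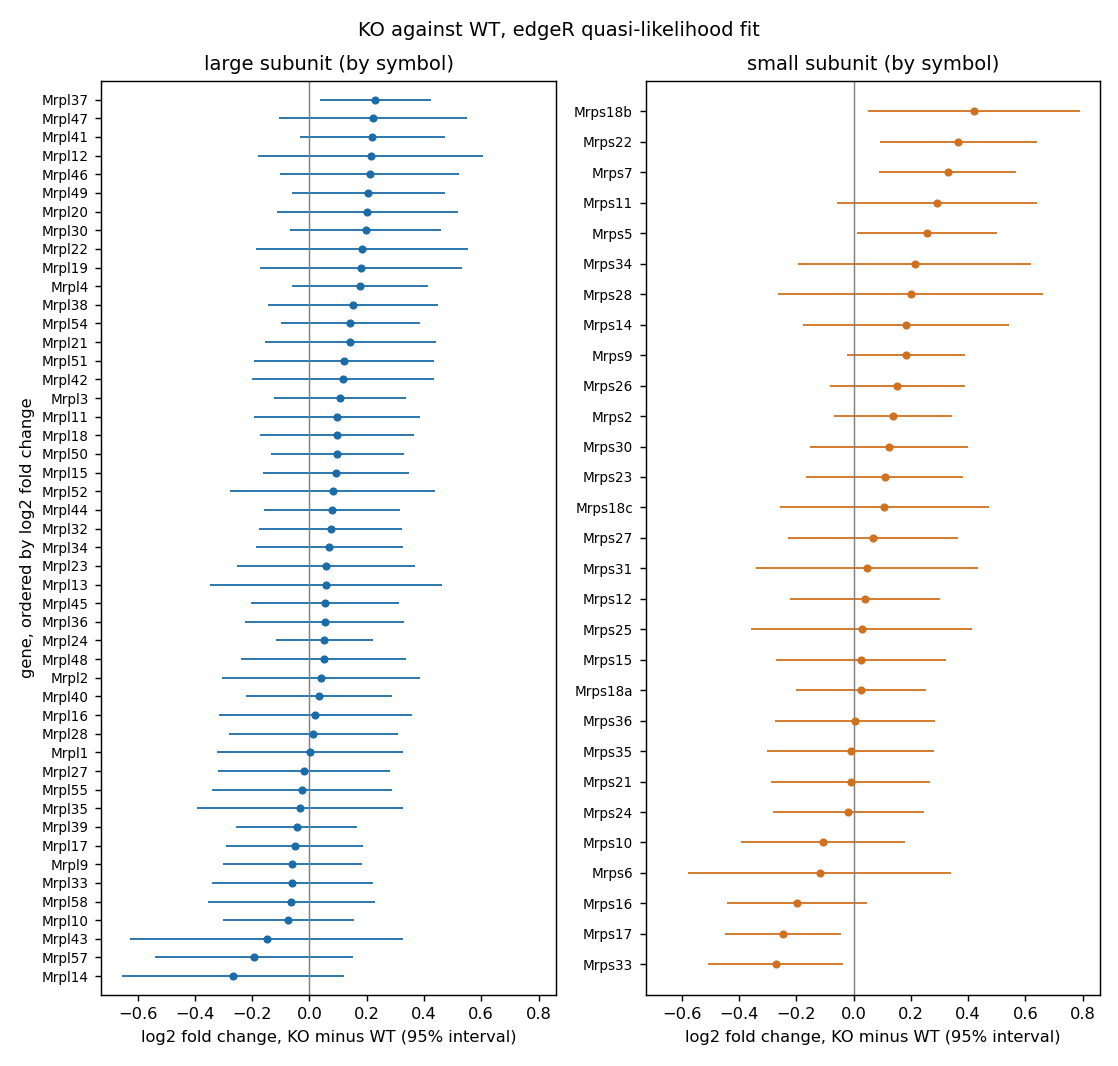
Log2 fold change of KO against WT for each tested member (horizontal axis, with 95% intervals of the edgeR fit), ordered by value, large subunit on the left and small subunit on the right. Most points lie between -0.2 and 0.2, and the ends of the order are Mrps33 at -0.27 and Mrps18b at 0.42.

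The small excess of positive values moved with the libraries KO 1 and WT 3, and the scaling shifted the values of all genes as well as of members. Each member's log2 CPM was set against its own mean over the 6 libraries, and the median over the 77 members was then -0.032, 0.060 and -0.14 in the WT libraries and 0.21, -0.034 and -0.035 in the KO libraries, in replicate order. KO 1 was high and WT 3 low, and the other KO libraries lay among the WT libraries. The large subunit medians were -0.041, 0.065 and -0.12 in WT and 0.23, -0.046 and -0.042 in KO. The small subunit medians were -0.022, 0.048 and -0.15 in WT and 0.16, -0.013 and -0.019 in KO. Both subunits therefore ordered KO 1 highest and WT 3 lowest. KO 1 was the highest library for 53 members (68.8%, beside 21.4% of all genes tested) and WT 3 the lowest for 35 (45.5%, beside 20.7%). Within groups, the library medians of the members had an SD of 0.12, larger than the median difference between genotypes.

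**Figure D3:**
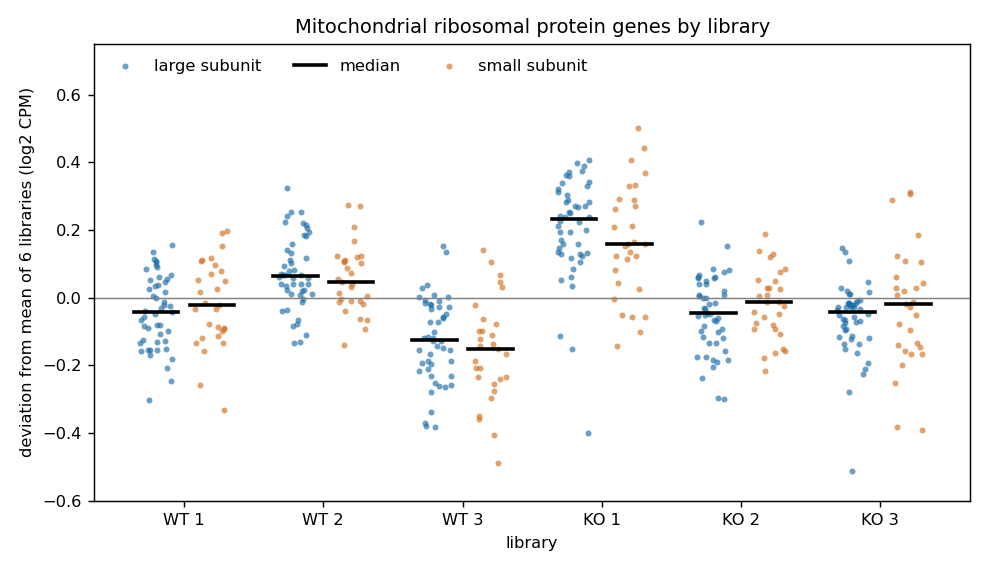
Deviation of each member's log2 CPM from its mean over the 6 libraries (vertical axis) by library (horizontal axis); points are genes, coloured by subunit, and black bars are medians. The medians in KO 1 are the highest, at 0.23 for the large and 0.16 for the small subunit, and those of KO 2 and KO 3 lie between WT 3 and WT 2.

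Without KO 1 the log2 fold change was above 0 for 36 of 77 members and the median was -0.010, with -0.023 in the large and 0.0096 in the small subunit. Without WT 3 it was above 0 for 44 members and the median was 0.020. With library size as the only scaling the split was 40 higher to 37 lower, in place of 57 to 20. Over all genes tested it was 5825 to 10614, in place of 7758 to 8681. The median over members was 0.0032 while that of all genes moved to -0.083. With DESeq2 the split of the members was 59 to 18. The cytosolic ribosomal protein genes, which encode the ribosome outside mitochondria, were higher in 44 of 78 tested with a median of 0.013. Their library medians were 0.084, -0.0067 and -0.098 in WT and 0.10, -0.039 and -0.033 in KO. KO 1 and WT 3 were the highest and the lowest library for that group too, by smaller amounts.

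**Figure D4:**
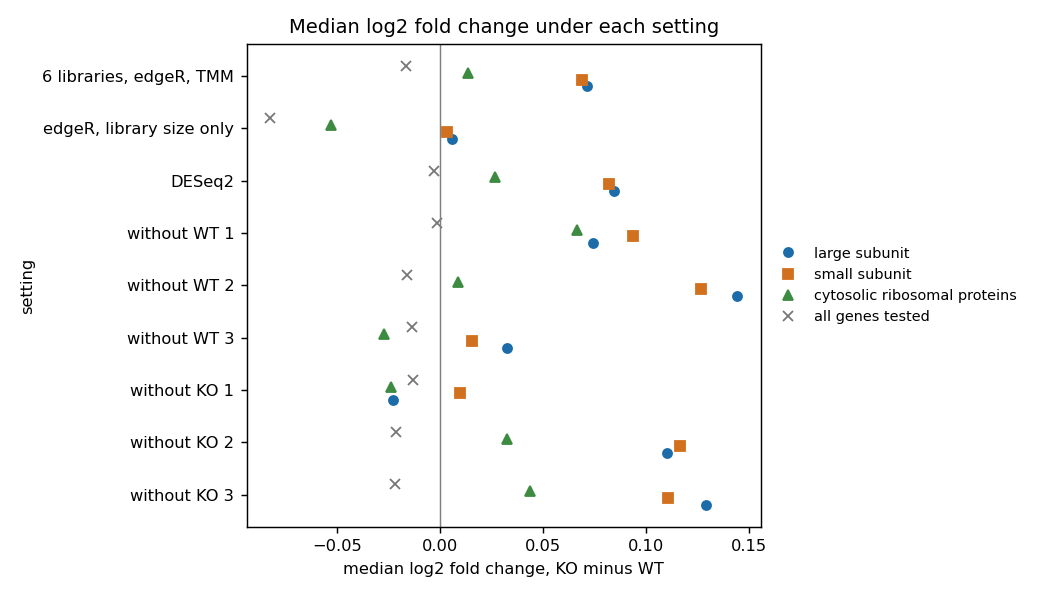
Median log2 fold change of KO against WT (horizontal axis) under each setting (vertical axis), for large and small subunit genes, cytosolic ribosomal protein genes and all genes tested. Without KO 1 the large subunit median is -0.023 and the small subunit median 0.0096, against 0.071 and 0.069 with all 6 libraries.

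By position in the large subunit, no site stood apart. At the stalk, where translation factors dock, 2 of 3 genes had a positive log2 fold change. Mrpl12, the stalk protein that binds those factors, was at 28.9, 40.9 and 27.1 CPM in WT and 45.4, 35.7 and 31.2 CPM in KO. The groups overlapped, with WT 2 above KO 2 and KO 3 (log2 fold change 0.21, SE 0.176), and the value was 0.053 without KO 1 and 0.43 without WT 2. Mrpl11 was at 0.097 and Mrpl10, the base of the stalk, at -0.075. Around the peptidyl transferase centre, where peptide bonds form, all 4 genes were positive in sign: Mrpl2 at 0.040, Mrpl3 at 0.11, Mrpl4 at 0.18 and Mrpl16 at 0.020. The 95% interval of each included 0, and 3 of them (Mrpl2, Mrpl3 and Mrpl16) were below 0 without KO 1, as were Mrpl2 and Mrpl16 with library size as the only scaling.

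At the rim of the exit tunnel, through which the new protein leaves towards the inner membrane, 5 of 6 genes were positive with a median of 0.057, although Mrpl23, Mrpl24 and Mrpl45 were below 0 with library size as the only scaling. Mrpl47 was at 0.22, Mrpl22 at 0.19, and Mrpl45, which holds the ribosome at the membrane, at 0.055. Mrpl17 was at -0.052. Mrpl47 was at 0.076 without KO 1, and Mrpl22 at 0.059 without WT 3 and 0.37 without WT 2. In the central protuberance, which faces the small subunit and the tRNAs, 5 of 6 were positive with a median of 0.073, from -0.063 for Mrpl58 to 0.21 for Mrpl46, and Mrpl40 and Mrpl48 were below 0 with library size as the only scaling. Mrpl46 was at 0.083 without KO 1. Mrpl58 encodes a peptidyl-tRNA hydrolase built into the ribosome. The 30 large subunit genes with bacterial counterparts had a median of 0.058, and the 20 without had one of 0.089, where these groups follow the protein's place in the ribosome rather than its symbol.

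In the large subunit Mrpl37, a protein found only in mitochondrial ribosomes, was at 50.9, 51.8 and 54.4 CPM in WT and 64.8, 56.6 and 62.8 CPM in KO. Every KO library was above every WT library. Its log2 fold change was 0.23 (SE 0.0872, adjusted p = 0.401 by edgeR's quasi-likelihood test with Benjamini-Hochberg adjustment). It was the only 1 of the 48 tested large subunit genes with an unadjusted p under 0.05. Over all genes tested 5.05% were higher and 5.77% lower at that level. Mrpl41 was at 24.2, 26.6 and 22.8 CPM in WT and 32.3, 26.8 and 26.7 CPM in KO (log2 fold change 0.22, SE 0.114). Its groups did not overlap, but WT 2 and the lower KO libraries were almost level. Without KO 1 its value was 0.13. Mrpl49 and Mrpl30 followed at 0.21 (SE 0.120) and 0.20 (SE 0.119), with overlapping groups, and were at 0.077 and 0.082 without KO 1.

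On the lower side of the large subunit Mrpl14, a protein at the interface with the small subunit, was at 10.1, 10.6 and 10.3 CPM in WT and 10.2, 9.004 and 6.52 CPM in KO. KO 1 was level with WT, and KO 3 was low (log2 fold change -0.27, SE 0.174, and -0.10 without KO 3). Mrpl57 was at -0.19, Mrpl43 at -0.15 and Mrpl10 at -0.075, all with overlapping groups and with SEs of 0.155, 0.215 and 0.103. With each library left out they ran from -0.32 to -0.058, from -0.35 to -0.0046 and from -0.14 to -0.017.

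In the small subunit the head, which holds the tRNAs during movement along the mRNA, had 3 of 5 genes above 0 with a median of 0.18. Mrps7, a head protein that contacts the tRNA exit region, was at 35.7, 35.6 and 33.9 CPM in WT and 50.6, 41.6 and 39.96 CPM in KO. The groups did not overlap, and KO 1 was the highest (log2 fold change 0.33, SE 0.108, adjusted p = 0.373 by edgeR's quasi-likelihood test with Benjamini-Hochberg adjustment). Without KO 1 the value was 0.22. Mrps9, whose protein reaches towards the tRNA in the head, was at 31.5, 33.6 and 30.8 CPM in WT and 38.0, 34.2 and 36.7 CPM in KO, also without overlap (0.18, SE 0.0932). Mrps14 was at 0.18 with overlapping groups, Mrps24 at -0.018 and Mrps10 at -0.11. Mrps14 was at 0.015 without WT 3, and Mrps10 at -0.026 without KO 2 and -0.24 without KO 3.

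Among the decoding and body proteins 3 of 5 were above 0 with a median of 0.027, and Mrps12 and Mrps15 of these were below 0 with library size as the only scaling. Mrps5 was at 27.9, 28.1 and 25 CPM in WT and 31.9, 28.9 and 36.0 CPM in KO. Groups did not overlap, though WT 2 and KO 2 were close (log2 fold change 0.26, SE 0.110, adjusted p = 0.452 by edgeR's quasi-likelihood test with Benjamini-Hochberg adjustment). KO 3 was the highest, and leaving out each library in turn gave 0.17 to 0.33. Mrps17, a body protein that binds the ribosomal RNA, went the other way, at 36.6, 39.2 and 35.1 CPM in WT and 31.7, 31.5 and 30.4 CPM in KO. Every KO library was below every WT library, and the KO libraries were nearly level with each other (log2 fold change -0.25, SE 0.0912, adjusted p = 0.394 by the same test and adjustment). Mrps16 was at -0.20 (SE 0.111) with overlapping groups, and at -0.12 without KO 3. Mrps12, the protein at the decoding centre, was at 0.040 and Mrps15 at 0.027. On the platform, Mrps11 was at 0.29 (SE 0.157, and 0.17 without WT 3), Mrps18c at 0.11, Mrps21 at -0.010 and Mrps6 at -0.12.

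Of the small subunit proteins absent from bacteria, Mrps22 was at 13.7, 14.3 and 12.5 CPM in WT and 17.7, 15.6 and 18.9 CPM in KO. All KO libraries were above all WT libraries, and KO 1 was not the highest (log2 fold change 0.37, SE 0.124, adjusted p = 0.379 by edgeR's quasi-likelihood test with Benjamini-Hochberg adjustment). Leaving out each library in turn gave 0.30 to 0.44. Mrps33 was at 21.0, 19.7 and 19.7 CPM in WT and 17.7, 16.5 and 15.97 CPM in KO, with every KO library lower (-0.27, SE 0.106, adjusted p = 0.410 by the same test and adjustment). The 10 small subunit genes without bacterial counterparts had a median of 0.089 and the 16 with counterparts one of 0.074.

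In all, the 3 KO values lay above the 3 WT values for 7 members (9.09%), beside 7.8% of all genes tested, and below them for 2 members (2.60%), beside 8.65%. Those above were Mrps2, Mrps5, Mrps7, Mrps9, Mrps22, Mrpl37 and Mrpl41, and those below were Mrps17 and Mrps33. Mrps2 was at 26.9, 28.5 and 26.6 CPM in WT and 31.3, 29.8 and 29.3 CPM in KO (log2 fold change 0.14, SE 0.0924). The share above was near the background, and the share below was under it.

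**Figure D5:**
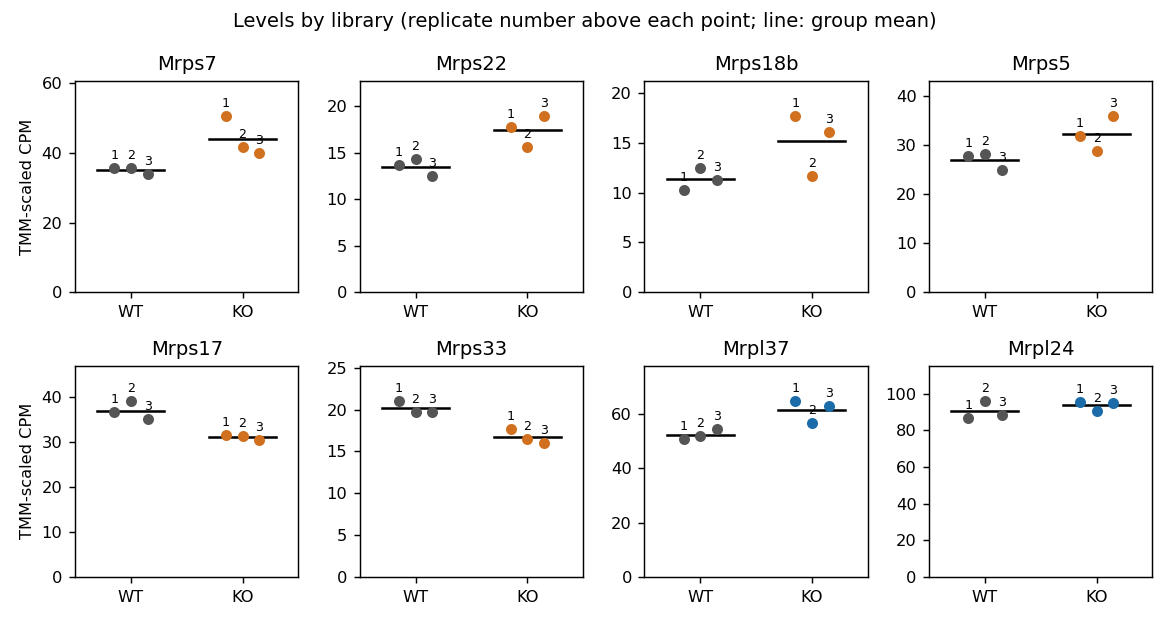
TMM-scaled CPM (vertical axis, from 0) of single members in the 3 WT and 3 KO libraries; each point is a library with its replicate number, and lines are group means. In Mrps7, Mrps22 and Mrpl37 the KO points lie above the WT points, in Mrps17 and Mrps33 below them, and in Mrps18b KO 2 at 11.7 CPM falls among the WT points.

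Symbols do not always match the place of the protein. The Mrps18 paralogues all carry a small subunit symbol, but the Mrps18a protein is a large subunit component, whereas those of Mrps18b and Mrps18c are in the small subunit. Mrps18a was at 21.3, 20.6 and 19.2 CPM in WT and 20.9, 19.9 and 21.4 CPM in KO, with overlapping groups (log2 fold change 0.025, SE 0.103). Mrps18b was at 10.3, 12.5 and 11.2 CPM in WT and 17.7, 11.7 and 16.1 CPM in KO. KO 1 and KO 3 were above WT, and KO 2 fell within it. Its log2 fold change of 0.42 (SE 0.166, adjusted p = 0.416 by edgeR's quasi-likelihood test with Benjamini-Hochberg adjustment) was the largest of the members, and was 0.30 without KO 1 and 0.58 without KO 2. In GENCODE M21, 30.5% of the exonic bases of Mrps18b overlap the antisense gene Gm16279, and with the strand setting of the counts not given, reads of the pair cannot be told apart. Mrps18c was at 7.62, 8.73 and 7.23 CPM in WT and 9.81, 8.39 and 7.23 CPM in KO (0.11, SE 0.164), with overlap of the groups. Of its exonic bases 23.2% are also exonic in Gm43511 on the same strand. Exons of other genes overlap some exonic bases of 33 members in all. The intervals of the 3 paralogues overlapped each other, and the difference between them was not tested.

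Mrps30, whose protein is in the large subunit, was at 0.12 (SE 0.124, and 0.043 without WT 3), and Mrps36, whose protein belongs to the 2-oxoglutarate dehydrogenase complex rather than the ribosome, at 0.0050 (SE 0.125). With Mrps30 and Mrps18a counted in the large subunit and Mrps36 left out, the subunit medians were 0.071 and 0.088.

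Members of the mitoribosome that carry other symbols were Dap3, Ptcd3, Chchd1, Aurkaip1 and Gadd45gip1. Of these, 4 of 5 were above 0 with a median of 0.14, and 0 were called by edgeR or DESeq2. At an unadjusted p under 0.05 edgeR gave 1, higher in KO, beside 5.05% of all genes. Without KO 1, 3 of the 5 were above 0 with a median of 0.048. With library size as the only scaling 4 of 5 were above 0 with a median of 0.076, beside -0.083 over all genes. Dap3, a GTP-binding small subunit protein, was at 60.9, 65.9 and 58.2 CPM in WT and 73.8, 72.9 and 72.5 CPM in KO. The groups did not overlap and KO libraries were nearly level (log2 fold change 0.24, SE 0.0811, adjusted p = 0.373 by edgeR's quasi-likelihood test with Benjamini-Hochberg adjustment). Of 26 tested genes for mitoribosome assembly, 14 were above 0 with a median of 0.016 and 0 were called by edgeR or DESeq2. By edgeR 1 was higher at an unadjusted p under 0.05, the rRNA methyltransferase gene Nsun4 at 0.26, beside 5.05% of all genes. The median of these 26 genes was -0.050 with library size as the only scaling, beside -0.083 over all genes. Of 14 tested mitochondrial translation factors 7 were above 0 with a median of -0.0037, and 0 were called by edgeR or DESeq2, with 0 at an unadjusted p under 0.05 by either tool.

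Of 14 genes for mitochondrial transcription and biogenesis 7 were above 0 with a median of 0.024. With library size as the only scaling this median was -0.041, beside -0.083 over all genes. Here edgeR called 0, with 2 higher and 1 lower at an unadjusted p under 0.05, beside 5.05% and 5.77% of all genes. DESeq2 called 1, Pprc1, beside 0.931% of all genes. Pprc1, which encodes a coactivator of NRF1, was at 56.5, 76.9 and 69.2 CPM in WT and 95.9, 92.4 and 87.9 CPM in KO. The groups did not overlap (log2 fold change 0.45, SE 0.110, adjusted p = 0.330 by edgeR's quasi-likelihood test with Benjamini-Hochberg adjustment). By DESeq2 its value was 0.46 (adjusted p = 0.0354), and edgeR without the filter on low counts also called it (adjusted p = 0.00226), beside 1.76% of all genes. Nrf1 was at 0.26 and Tefm, the mitochondrial transcription elongation factor, at -0.43, both also with an unadjusted p under 0.05. The ribosomal RNAs of the mitoribosome were at 0.17 for mt-Rnr2, that of the large subunit, and -0.020 for mt-Rnr1, that of the small subunit, in libraries whose kit is made for mRNA. Of the 13 mitochondrially encoded mRNAs, the templates of this ribosome, 8 were above 0 with a median of 0.10 and 0 were called by edgeR or DESeq2, with 3 by edgeR and 4 by DESeq2 at an unadjusted p under 0.05, all higher, beside 5.05% and 5.61% of all genes. With each library left out edgeR gave 1 to 5 higher. It gave 5 without KO 1, beside 686 of all 17138 genes. It gave 1 without KO 2, beside 611 of 16982, and 1 without KO 3, beside 971 of 16943. Without the filter on low counts edgeR called 1 of them, mt-Atp8 (log2 fold change 1.29, adjusted p = 5.43e-05), beside 1.76% of all genes in that fit. With the filter the smallest adjusted p of the 13 was 0.368 by edgeR's quasi-likelihood test.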

How the data were processed

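Libraries were made from Trizol-extracted RNA with a Vazyme kit for mRNA, as the labels' protocols state. The deposited values were whole-number read counts per Ensembl gene without normalization, for which the authors used GRCm39, HISAT2, Subread and featureCounts, per the submitters' processing notes. Versions, annotation, the strand setting and how overlapping genes or multiply placed reads were handled were not given in the sources used here. A further 5 pseudogenes with such symbols, not counted as members, could share reads with them.

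Symbols for 52029 of the 57010 identifiers, with biotypes, transcript lengths and overlaps, were from GENCODE M21 (GRCm38). Since its build differs, no coordinates were joined to the counts. Promoters came from RefSeq (GRCm38.p6).

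In R 4.3.3, filterByExpr (minimum count 10, minimum total 15) left 16439 genes. The main test was edgeR 4.0.16's two-sided quasi-likelihood test of KO against WT with TMM scaling and genotype as sole factor. Its p-values were adjusted by Benjamini-Hochberg across the genes tested, with 0.05 as the threshold. Alternatives were DESeq2 1.42.0, library size as the only scaling, other filters, a replicate block, each library left out, removal of a fitted dependence on transcript length, GC and level, subunit by structure and the longest transcript. Deviations used log2 CPM with a prior count of 2. An exact permutation test of 3 against 3 reaches no p below 0.1. The procedure was tested on simulated data. Libraries of a group differed by more than sampling noise (chi-square per gene 16 to 40.4, over genes averaging at least 50 counts).

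Members named in full were, per subunit, the 5 highest per kilobase, the 4 of smallest p in each direction, those outside the filter, the Mrps18 paralogues, Mrps30 and Mrps36, and the genes of the functional sites. From other lists up to 3 members of smallest p could be named. Genes named for separate groups, for a wide interval, for exon overlap or a low level per kilobase, and the genes whose promoters are printed, fall outside that rule and were picked with their values known. Members and lists were chosen with earlier results of these data known.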

Additional observations from a re-analysis of the deposited data

How the results depend on the processing

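Across the alternatives run, edgeR and DESeq2 called 0 members. Over all genes 2 were called (0 higher, 2 lower), against 153 with DESeq2 (87 higher, 66 lower), 511 with no filter on low counts (245 higher, 266 lower), and 2 to 80 with each library left out (0 to 65 higher, 2 to 15 lower), where 80 were called without KO 3 and 1 was higher without WT 1. The cause was not tested. The number of members above 0 was 36 to 61 with each library left out, and 36 without KO 1. The median over members was then -0.010 to 0.14, over the large subunit -0.023 to 0.14 and over the small subunit 0.0096 to 0.13. With the trend in transcript length, GC content and level removed, the medians were 0.083, 0.077 and 0.13. Levels per kilobase with the longest transcript had medians of 17.3 for the large and 12.3 for the small subunit genes, since a longer length divides the same counts.

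Replicate numbers recur in both groups but are not said to pair the libraries. Same-numbered deviations correlated at -0.0057, -0.19 and -0.047, which cannot show whether the libraries were paired. With a replicate block 0 members and 2 genes in all were called, and the median over members was 0.068.

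Of 560 values of named genes under the alternatives, 513 kept direction and side of the threshold, 45 changed sign and 2 passed the threshold, both for Mlxip. The sign changes concerned 19 members, with log2 fold changes of at most 0.12 in size before. With library size as the only scaling they were Mrpl24 -0.013, Mrpl23 -0.0062, Mrps18a -0.040, Mrps15 -0.039, Mrpl40 -0.033, Mrpl48 -0.017, Mrpl45 -0.012, Mrpl2 -0.025, Mrpl16 -0.044, Mrps12 -0.027 and Mrps36 -0.061. In that setting the median of all genes tested was -0.083. With DESeq2 Mrps21 was at 0.0022, and with a mean of at least 5 CPM Mrpl16 was at -0.00046 and Mrps36 at -0.017. The other 31 arose with a library left out, 14 of them without KO 1, 8 without WT 3, 4 without KO 3, 2 each without WT 1 and WT 2 and 1 without KO 2. With each library left out in turn the values ran from -0.090 to 0.16 for Mrpl23, -0.0015 to 0.21 for Mrps23, -0.12 to 0.083 for Mrps21, -0.016 to 0.064 for Mrps18a, -0.090 to 0.10 for Mrps15, -0.0080 to 0.21 for Mrps18c, -0.058 to 0.092 for Mrpl40, -0.074 to 0.15 for Mrpl48, -0.060 to 0.14 for Mrpl45 and -0.16 to 0.034 for Mrpl58. They ran from -0.066 to 0.20 for Mrpl2, -0.010 to 0.17 for Mrpl3, -0.099 to 0.15 for Mrpl16, -0.029 to 0.18 for Mrpl11, -0.012 to 0.098 for Mrps12, -0.12 to 0.060 for Mrps24, -0.26 to 0.032 for Mrps6 and -0.062 to 0.091 for Mrps36. The cause was not tested.

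With 3 libraries in each group the median SE of a member was 0.13 on the log2 scale, so differences of the size seen in most members were not detectable at this depth and number of libraries.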

Other observations

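The start sites of 25 of the 78 mitochondrial ribosomal protein genes (32.1%; 17 large and 8 small subunit genes) lay within 500 bases of the start of another protein-coding gene on the opposite strand in GENCODE M21, against 1956 of 21951 protein-coding genes (8.91%). Mrpl46 and Mrps11 are such a pair with each other, at log2 fold changes of 0.21 and 0.29. Of the 24 with a tested partner, 22 members and 12 partners had a log2 fold change above 0, with medians of 0.11 and 0.0052. Member and partner had the same sign for 12 of these 24 members, and no difference between these groups was tested. Mrpl46 and Mrps11, each the partner of the other, stand among both members and partners, so their pair is counted from each side. Among the 52 tested members without such a partner, 35 were above 0 with a median of 0.051. All these counts are from the main fit with 6 libraries. They were not obtained without KO 1, where 36 of all 77 members were above 0. Nor were they obtained with library size as the only scaling, where 40 of 77 were above 0. The 21951 genes behind the 8.91% include genes not tested here, and the share among tested genes was not computed.

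Members with the E-box core in a promoter were above 0 in 5 of 5 cases, at a median of 0.11, and those without it in 44 of 63, at a median of 0.055. Members with the NRF1 string were above 0 in 3 of 8 cases, at a median of -0.048, and those without it in 46 of 60, at 0.064. With the ETS string 16 of 25 were above 0, at a median of 0.069, and without it 33 of 43, at 0.055. With the YY1 string 8 of 11 were above 0, at a median of 0.097, and without it 41 of 57, at 0.054. Of the 5 genes with the E-box core, Mrpl2 (-0.066) and Mrps18c (-0.0080) were below 0 without KO 1, and Mrpl20 (0.036) and Mrpl37 (0.19) above. The value without KO 1 was not obtained for Mrpl36. It was at 21.0, 22.1 and 19.5 CPM in WT and 24.6, 21.9 and 18.5 CPM in KO, so KO 1 was its highest library. These counts were not tested.

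Of the mitochondrially encoded mRNAs, mt-Atp8 was at 2.52, 2.73 and 1.51 CPM in WT and 2.22, 7.36 and 6.99 CPM in KO. These are low levels beside the median of 306 CPM over the 13 mRNAs. KO 2 and KO 3 were high, whereas KO 1, the library with the highest level of most mitochondrial ribosomal protein genes, was among the WT libraries.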
